A study of Mus musculus with 17 samples.

Results

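The genotype by diet interaction in islets was examined for every gene of the table that holds 12 of the 17 mice of the series. For each gene it is the log2 difference between *Pax4* R192H and wildtype islets on a high-fat diet (HFD) minus the same difference on a standard chow diet (SCD). Of the 78239 gene identifiers in that table, 19137 passed a filter on low counts and were tested, and no gene was picked for its values. A positive interaction means that the genotype effect was more positive on the HFD, which can come from either diet.

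The *Pax4* R192H mice (Pax4 HH in the labels) were homozygous for a knock-in of the R200H substitution at the endogenous *Pax4* locus, the mouse counterpart of human R192H, so every cell carried it. They and their wildtype littermates (Pax4 WT) were males on a C57BL6/N background, with 3 mice in each of the 4 groups. The SCD groups were 12 weeks old and the HFD groups were 16 weeks old after 4 weeks of HFD, so that diet and age cannot be told apart in any value below. A second table served as a readout in other mice. Its 3 Pax4-BiKO mice carried homozygous floxed *Pax4* alleles with *Pdx1-CreERT2*, a Cre that the *Pdx1* promoter drives and tamoxifen activates, and its 2 Control mice carried the floxed alleles without Cre. Both of those groups were male, received tamoxifen and were 20 weeks old after 8 weeks of HFD.

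PAX4 is a paired homeodomain transcription factor that β cells need in order to form. An HFD raises the demand for insulin, and β cells are known to answer with more secretory protein synthesis and with replication. Dividing cells make the replication-dependent histones in S phase from genes that lie in clusters, and most of their transcripts end in a stem-loop in place of a poly(A) tail. The libraries were made from total RNA, a preparation that does not select for poly(A) tails.

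Total counts per mouse were between 24268150 and 42679673, and 2 identifiers without a gene symbol took 36.2% to 53.3% of them. The normalization factors ranged from 0.692 to 1.298 and were lowest in the *Pax4* R192H mice on the HFD (0.692, 0.695 and 0.823). *Pax4* itself had 0 counts in all 12 mice, which allows a share of up to 7.03e-06% to 1.24e-05% of a library, so that it could not serve as a check of the labels. Islet identity was plain from *Ins2*, which lay between 14522 and 46040 CPM, the counts scaled to a library of fixed size, and from *Gcg*, between 3857 and 7617 CPM. All CPM values were computed with the normalized library size.

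Transcripts of other cell types differed between groups. The 26 acinar markers, digestive enzymes of the exocrine pancreas for the most part, summed to 107351, 39356 and 40989 CPM in the *Pax4* R192H mice on the HFD and to 13611 to 26503 CPM in the other 9 mice. The 8 lymphocyte markers tested summed to 20.2, 32.9 and 107 CPM in the SCD-fed wildtype mice, to 33.9 CPM in HFD-fed *Pax4* R192H mouse 1, to 12.4 CPM in SCD-fed *Pax4* R192H mouse 1 and to at most 4.11 CPM in the remaining 7. The 20 macrophage markers summed to 274 to 387 CPM in the SCD-fed wildtype mice and to 179 to 273 CPM in the others. Intestinal markers summed to 270 CPM in SCD-fed *Pax4* R192H mouse 1, to 179 CPM in HFD-fed *Pax4* R192H mouse 1 and to 39.5 to 76.1 CPM elsewhere. In bulk islets, fewer cells of a type and less RNA per cell cannot be told apart.

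The interaction was called for 25 genes, or 0.131% of those tested, 17 of them (0.0888%) with a more positive and 8 (0.0418%) with a more negative genotype effect on the HFD (edgeR quasi-likelihood test, log2 fold change beyond 0.5 in either direction at a Benjamini-Hochberg adjusted p under 0.05). The lowest adjusted p was 0.0135, and the smallest absolute log2 fold change among the 25 was 0.92. At an adjusted p below 0.1 there were 118 genes, 88 of them positive. Without adjustment, 1309 genes (6.84%) passed p below 0.05 in the positive and 838 (4.38%) in the negative direction, 11.2% in all. The median standard error (SE) of an interaction was 0.38 on the log2 scale, against 0.27 for the genotype effect on either diet.

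The simple effects of the same fit, which share these mice, were as follows. The genotype effect was called for 437 genes (2.28%) on the HFD and for 0 (0%) on the SCD by edgeR, where 629 genes (3.29%) had an unadjusted p below 0.05. No other tool was run on the SCD effect. The diet effect was called for 71 genes (0.371%) in wildtype mice and for 2996 genes (15.7%) in *Pax4* R192H mice.

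The number of calls rested on single mice. Leaving out SCD-fed wildtype mouse 1, 2 or 3 gave 1, 45 or 1 called genes. Leaving out SCD-fed *Pax4* R192H mouse 1, 2 or 3 gave 1, 2 or 11. Leaving out HFD-fed wildtype mouse 1, 2 or 3 gave 1, 101 or 3, and leaving out HFD-fed *Pax4* R192H mouse 1, 2 or 3 gave 9, 0 or 4. All 25 genes kept the sign of their interaction in each of these 12 fits. With the acinar marker level as a covariate 0 genes were called (lowest edgeR adjusted p 0.173, 1182 genes at an unadjusted p below 0.05), and all 25 kept their sign. That level was highest in the *Pax4* R192H mice on the HFD, so this fit cannot tell it from the interaction. Over all alternative fits the interaction ran from 2.58 to 3.23 for *Dapl1* and from -3.355 to -2.045 for *T2*, the lead gene of each direction. DESeq2 without the covariate called 311 of the 19960 genes to which it gave an adjusted p (1.56%), all 25 genes among them.

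In 17 of the 25 genes the 3 *Pax4* R192H mice on the HFD lay above the other 9 mice, and in 7 they lay below them. Over all tested genes, 8.99% lay above and 4.85% below in this way. In 24 of the 25 genes, therefore, the *Pax4* R192H mice on the HFD did not overlap with any other mouse. HFD-fed wildtype mouse 2 was the HFD-fed wildtype mouse nearest to them in 19 of these 24 genes. The plot of the genotype effect on each diet shows that most called genes lay far from 0 on the HFD axis and close to it on the SCD axis.

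**Figure D1:**
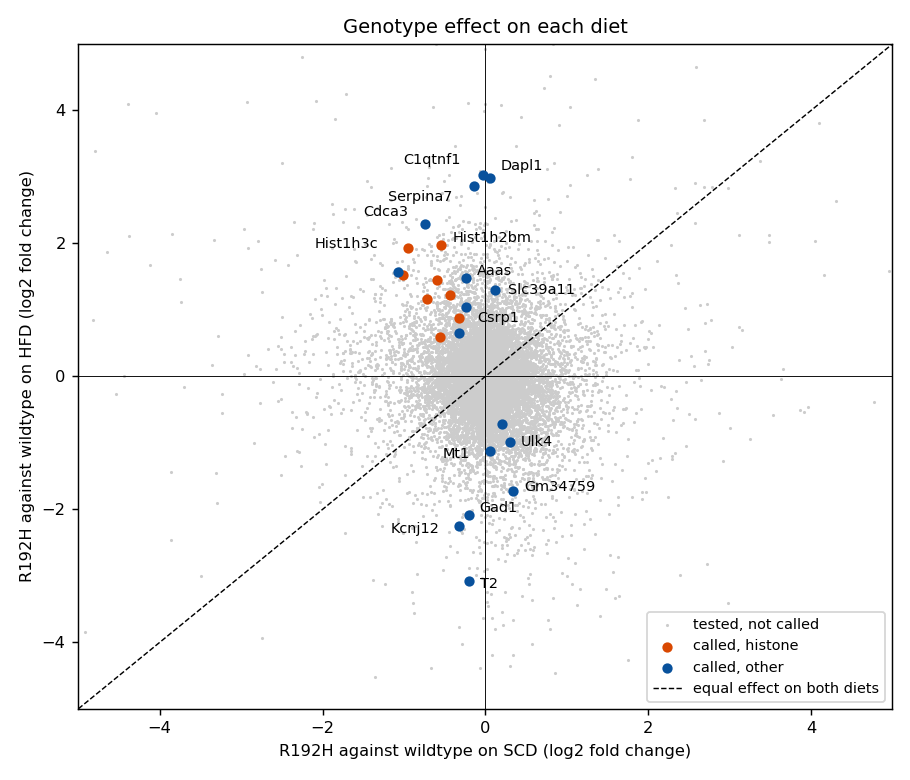
Log2 fold change of *Pax4* R192H against wildtype islets on the SCD (horizontal) and on the HFD (vertical) for the tested genes within 5 log2 units, with the called genes coloured and the line of equal effects dashed (3 mice per group). The vertical distance from the dashed line is the interaction, and *Gm43126* lies outside the frame.

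Among the called genes that are not histones, 9 had a positive interaction. *Dapl1*, death-associated protein-like 1 (chr2:59484653-59505020, GRCm38), had 111, 117 and 114 CPM in the *Pax4* R192H mice on the HFD. It had 10.5, 19.7 and 13.0 CPM in HFD-fed wildtype mice, 7.28, 5.74 and 5.09 CPM in SCD-fed wildtype mice and 4.45, 6.32 and 8.09 CPM in SCD-fed *Pax4* R192H mice. The *Pax4* R192H mice on the HFD were thus close to each other and far above the rest. *Dapl1* was also called for diet in wildtype mice (log2 fold change 1.25, edgeR adjusted p = 0.0465), with a diet effect of 4.19 in *Pax4* R192H mice. The interaction was 2.94 ± 0.34 (log2, SE, n = 3 mice per group, edgeR adjusted p = 0.0135), from a genotype effect of 2.99 on the HFD and 0.05 on the SCD. *Dapl1* was called in 11 of the 12 fits that left out a mouse, more than any other gene of the 25. Each of the other called genes was called in 1 to 5 of these fits.

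*Serpina7*, which encodes thyroxine-binding globulin (chrX:139079257-139085236), had 79.4, 98.9 and 92.2 CPM in *Pax4* R192H mice on the HFD and 7.07, 20.6 and 9.74 CPM in HFD-fed wildtype mice. All 6 SCD-fed mice had between 7.96 and 12.6 CPM, so that the highest value outside the HFD-fed *Pax4* R192H group belonged to HFD-fed wildtype mouse 2. The interaction was 3.00 ± 0.43 (edgeR adjusted p = 0.0264). *C1qtnf1*, a secreted protein of the C1q and TNF-related family, showed the same arrangement at a lower level. It had 12.0, 14.0 and 9.22 CPM in *Pax4* R192H mice on the HFD and 0.526 to 2.15 CPM in the other 9, and its interaction was 3.06 ± 0.52 (edgeR adjusted p = 0.0421).

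*Slc39a11*, a zinc transporter of the ZIP family, had 36.9, 37.5 and 33.4 CPM in *Pax4* R192H mice on the HFD, 12.7 to 16.3 CPM in HFD-fed wildtype mice and 9.87 to 11.7 CPM in the SCD-fed mice (interaction 1.17 ± 0.17, edgeR adjusted p = 0.0264). *Cdca3*, which promotes entry into mitosis, had 5.37, 4.49 and 6.26 CPM against 0.432 to 1.44 CPM in the other 9 mice (3.04 ± 0.51, adjusted p = 0.0421). *Aaas*, a nuclear pore protein, had 8.19, 8.10 and 8.30 CPM against 2.18 to 3.64 CPM (1.71 ± 0.29). *Csrp1*, a LIM domain protein, had an interaction of 1.27 ± 0.22, and *Ly6e*, a surface protein anchored by lipid, one of 0.98 ± 0.17. The identifier ENSMUSG00000120992.2, which has no symbol in the annotation used, had one of 2.64 ± 0.46. In these genes the SCD groups overlapped or differed by less than the HFD groups, and none of the 25 genes was called on the SCD.

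The 8 called genes with a negative interaction were led by *T2*, brachyury 2 (chr17:8355992-8423513). It had 0.501, 1.05 and 1.60 CPM in *Pax4* R192H mice on the HFD and 6.99 to 11.5 CPM in the other 9 mice, with an interaction of -2.88 ± 0.40 (edgeR adjusted p = 0.0264). The locus overlaps 4 other annotated genes, and a use of strand in the counting was not given in the sources used here. *Gad1*, the enzyme GAD67 that makes GABA from glutamate (chr2:70553072-70602014, overlapped by *Gad1os*), had 8.80, 12.2 and 16.7 CPM in *Pax4* R192H mice on the HFD. It had 61.6, 41.9 and 57.3 CPM in HFD-fed wildtype mice and 40.4 to 53.0 CPM in the 6 SCD-fed mice, and its interaction was -1.89 ± 0.28 (adjusted p = 0.0264). Both genes were thus several-fold lower in this group alone of the 4, and neither was called for diet in wildtype mice.

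*Kcnj12*, the inward rectifier potassium channel Kir2.2 (chr11:61022564-61071131), had 0.787, 1.09 and 0.987 CPM in *Pax4* R192H mice on the HFD against 3.47 to 6.09 CPM in the other 9 (-1.93 ± 0.31, edgeR adjusted p = 0.0421). *Mt1*, a metallothionein that binds zinc and copper, had 23.97, 28.9 and 25.9 CPM against 50.9 to 79.3 CPM (-1.17 ± 0.19, adjusted p = 0.0421). With *Slc39a11*, called genes that handle zinc therefore lay on both sides of 0. *Ulk4*, a pseudokinase, had an interaction of -1.29 ± 0.21, *Zfp568*, a KRAB zinc finger protein, one of -0.92 ± 0.16, and the long noncoding RNA *Gm34759* one of -2.07 ± 0.34. *Ulk4* overlaps *Ctnnb1*, and *Slc39a11* overlaps *Sstr2* and *Cog1*, among other genes.

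*Gm43126*, an antisense RNA that overlaps *Ccnd2* (chr6:127122966-127126155), was the 1 called gene whose *Pax4* R192H mice on the HFD did not stand apart. It had no count in the 3 SCD-fed wildtype mice, 1.22, 0.684 and 2.29 CPM in SCD-fed *Pax4* R192H mice, 1.09, 0.136 and 0.651 CPM in wildtype mice on the HFD and 0, 0.0839 and 0 CPM in *Pax4* R192H mice on the HFD. The fitted interaction rested on groups at or near 0 counts and depends on the prior count of the fit. *Ccnd2* itself had an interaction of -0.28 ± 0.41.

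**Figure D2:**
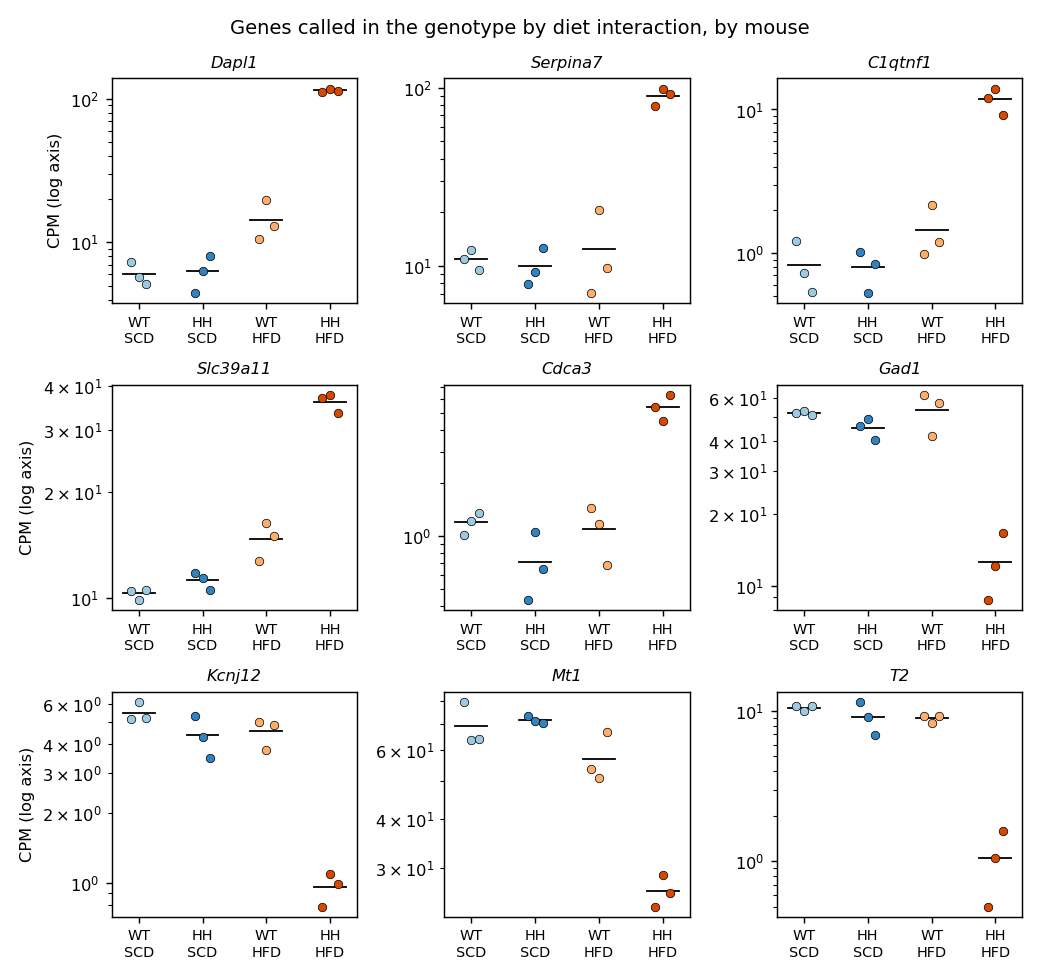
CPM on a log axis for 9 called genes in each mouse, with points for mice and a bar for the mean of the 3 mice of each group (WT, wildtype and HH, *Pax4* R192H). The *Pax4* R192H mice on the HFD lie above all others in *Dapl1*, *Serpina7*, *C1qtnf1*, *Slc39a11* and *Cdca3* and below all others in *Gad1*, *Kcnj12*, *Mt1* and *T2*.

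Of 62 tested replication-dependent histone genes 8 were called, against 0.131% of all tested genes. They were *Hist1h2bm*, *Hist1h3c*, *Hist1h2ap*, *Hist1h3h*, *Hist1h4a*, *Hist1h2bk*, *Hist1h3f* and *Hist1h2bg*, all on chromosome 13 and all with a positive interaction. They encode H2A, H2B, H3 and H4, the histones that package newly replicated DNA. Of the 62 genes, 49 lie on chromosome 13, 9 on chromosome 3, 3 on chromosome 11 and 1 on chromosome 6. These genes were grouped after the calls had been seen. Leaving out 1 mouse gave 0 to 13 called histones, where 0% to 0.498% of all tested genes were called. DESeq2 called 24 histones, against 1.56% of all genes. With the replicate block, the acinar covariate or the macrophage covariate 0 histones were called, as were 0 of all genes.

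*Hist1h2bm* had 10.8, 11.1 and 12.5 CPM in *Pax4* R192H mice on the HFD and 1.34 to 3.34 CPM in the other 9 mice, with an interaction of 2.51 ± 0.33 (edgeR adjusted p = 0.0264). *Hist1h3c* had 17.998, 17.5 and 22.5 CPM against 1.40 to 7.16 CPM (2.88 ± 0.41). *Hist1h4a* had 10.4, 14.1 and 17.8 CPM against 4.05 to 7.38 CPM (1.88 ± 0.29, adjusted p = 0.0319). The other called members had interactions of 2.53 ± 0.37 (*Hist1h3h*), 2.04 ± 0.34 (*Hist1h2bk*), 1.65 ± 0.24 (*Hist1h2ap*), 1.21 ± 0.21 (*Hist1h2bg*) and 1.16 ± 0.19 (*Hist1h3f*). In each of the 8 genes the *Pax4* R192H mice on the HFD lay above all 9 others.

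The histone interactions were made up differently from that of *Dapl1*. The genotype effect of the 8 called members was 0.60 to 1.97 on the HFD and -0.33 to -1.01 on the SCD, so that both diets added to the interaction. None was called on the SCD, and *Hist1h3f*, with the lowest adjusted p there, had 0.791. Over all 62 genes tested, the median interaction was 1.19, against -0.01 over all tested genes, and the median genotype effect was 0.85 on the HFD and -0.30 on the SCD. The interaction was above 0 for 58 of the 62 genes, against 49.2% of all tested genes, and 43 passed an unadjusted p below 0.05 in the positive direction and 1 in the negative, against 6.84% and 4.38% of all tested genes. *Hist1h2br*, the negative one, had no count in SCD-fed wildtype mice, and the median without it was 1.20.

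Many of these genes are near copies of each other, and the estimation step divides reads among them, so the value of a single member is uncertain. The sums over the tested members of a class, given next, leave out reads assigned to untested copies. The 11 H3 genes summed to 176, 195 and 211 CPM in *Pax4* R192H mice on the HFD, to 106, 112 and 90.9 CPM in HFD-fed wildtype mice, to 98.9, 77.7 and 76.6 CPM in SCD-fed wildtype mice and to 62.6, 66.2 and 62.4 CPM in SCD-fed *Pax4* R192H mice. The 18 H2B genes summed to 255 to 304 CPM in *Pax4* R192H mice on the HFD and 109 to 199 CPM elsewhere, and the 16 H2A genes to 249 to 281 CPM and 106 to 182 CPM. The 5 H1 genes summed to 340 to 408 CPM against 155 to 273 CPM, and the 12 H4 genes to 355 to 459 CPM against 200 to 345 CPM. In all 5 classes the *Pax4* R192H mice on the HFD lay above the other mice, with the smallest gap in H4.

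**Figure D3:**
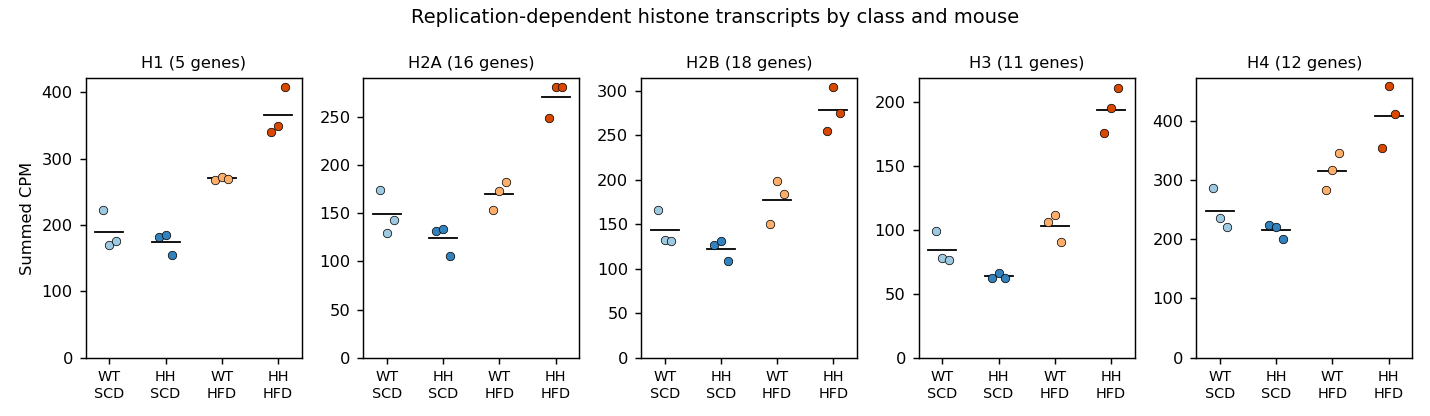
Summed CPM of the tested replication-dependent histone genes of each class, by mouse, with the group mean as a bar (WT, wildtype and HH, *Pax4* R192H). The H3 sum runs from 176 to 211 in the *Pax4* R192H mice on the HFD and from 62.4 to 112 in the other 9.

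The promoters of the 3 called H2B genes show a sequence that the family is known for. The octamer ATTTGCAT is the known binding site of POU factors such as OCT1 and is capitalized in these stretches, which run from 100 bases before to 20 bases after the annotated start (RefSeq, GRCm38.p6, plus strand):
Hist1h2bm chr13:21721944-21722063: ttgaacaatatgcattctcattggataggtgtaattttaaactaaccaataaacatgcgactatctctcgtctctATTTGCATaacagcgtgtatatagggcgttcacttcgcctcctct
Hist1h2bk chr13:22035721-22035840: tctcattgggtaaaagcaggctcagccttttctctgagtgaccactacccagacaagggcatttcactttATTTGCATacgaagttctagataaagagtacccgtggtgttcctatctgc
Hist1h2bg chr13:23571300-23571419: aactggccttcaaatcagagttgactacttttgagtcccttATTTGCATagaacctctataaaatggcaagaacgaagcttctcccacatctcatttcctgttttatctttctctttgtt
The octamer begins at -25, -30 and -59 in these genes, where -1 is the base before the start.

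Both strands were searched in the window from 250 bases before to 50 after the start, and the first listed window was used where a gene had several. The octamer occurred in 11 of the 55 histone windows that could be matched to RefSeq (20.0%) and in 1.74% of all 32851 promoter windows. It lay in 5 of 15 H2B and 6 of 15 H2A windows and in 0 of the 25 windows of H1, H3 and H4 genes. Windows of neighbouring H2A and H2B genes can overlap, and a match is then counted in both. CCAAT occurred in 47 of 55 histone windows (85.5%) and in 37.4% of all windows. Of the 10 other called genes with a window, 0 held the endoplasmic reticulum (ER) stress element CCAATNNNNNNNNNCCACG, the ATF4 composite site TGATGNAAT or the XBP1 core TGACGTGG, which occurred in 0.119%, 0.965% and 0.676% of all windows. The octamer and CCAAT were chosen after the histone values had been seen, and CCAAT is part of the ER stress element.

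Replacement histone variants are made outside S phase as well. Of 11 tested, 9 had an interaction above 0 and 4 passed an unadjusted p below 0.05 upwards, against 6.84% of all tested genes, 0 were called by edgeR and 1 by DESeq2, which called 1.56% of all genes. *H2afx*, the variant that is phosphorylated at DNA breaks, came closest, with 12.7, 14.6 and 17.1 CPM in *Pax4* R192H mice on the HFD and 3.86 to 9.86 CPM in the other 9 (1.40 ± 0.26, edgeR adjusted p = 0.0535). Among 12 factors that process the 3' end of histone transcripts, 0 were called by edgeR or DESeq2 and 1, *Nelfe*, passed an unadjusted p below 0.05 (0.56 ± 0.24). *Slbp*, which binds the histone stem-loop, had an interaction of 0.31 ± 0.23, and *Npat*, the coactivator of histone genes, one of -0.29 ± 0.17.

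Genes of the cell cycle had the highest median interaction of the programs examined. The median over 43 tested genes was 1.82, from a genotype effect of 1.43 on the HFD and -0.24 on the SCD, and 42 of the 43 interactions were above 0. In the positive direction 35 genes passed an unadjusted p below 0.05, against 6.84% of all tested genes, and 0 in the negative. None was called by edgeR and 16 were called by DESeq2, which called 1.56% of all genes. *Aurka*, a kinase of the mitotic spindle, had 6.30, 6.08 and 7.31 CPM in *Pax4* R192H mice on the HFD and 1.13 to 2.90 CPM in the other 9, with an interaction of 1.82 ± 0.34 (edgeR adjusted p = 0.0536). *Mcm2*, a subunit of the replicative helicase, had 14.7, 18.5 and 20.7 CPM against 5.61 to 10.4 CPM (1.20 ± 0.25, adjusted p = 0.0687). The mean log2 CPM of the list was 3.00 to 3.25 in *Pax4* R192H mice on the HFD and 0.98 to 2.07 in the others, while its summed CPM, which the most abundant members set, overlapped at 772 to 959 against 496 to 801.

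The cell of origin of these transcripts is not given by islet RNA. The count of 35 cell cycle genes was 14 with the acinar marker level as a covariate and 23 with the macrophage marker level, and the count of 43 histone genes was 40 and 27. The share of all tested genes that passed upwards was 3.65% and 2.11% with these covariates, against 6.84% without. Over the 12 fits that left out a mouse, the counts were 29 to 37 and 37 to 45. The acinar marker level was higher in each *Pax4* R192H mouse on the HFD than in any other mouse. The macrophage level was likewise highest in the SCD-fed wildtype mice. Each covariate thus nearly marks a group of the contrast, so these fits cannot tell cell content from the interaction. The part of acinar and immune cells in these results was not tested.

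Chaperones and degradation factors of the ER, which fold secretory proteins or remove misfolded ones, had a median interaction of 0.70 over 37 tested genes (0.64 on the HFD and -0.02 on the SCD). Of these, 24 passed an unadjusted p below 0.05 upwards, against 6.84% of all tested genes, and 0 downwards. None was called by edgeR and 10 were among the 311 called by DESeq2 (1.56% of all genes). *Creld2*, a protein induced by ER stress, had 302.5, 349 and 288 CPM in *Pax4* R192H mice on the HFD and 43.3 to 138 CPM in the other 9, and the highest of those 9 was HFD-fed wildtype mouse 2 (1.81 ± 0.34, edgeR adjusted p = 0.0576). *Derl3*, which acts in the removal of misfolded proteins, had 39.6, 41.9 and 38.9 CPM against 4.10 to 15.2 CPM (1.77 ± 0.34, adjusted p = 0.0576). *Hspa5*, the main ER chaperone BiP, had 3160, 3176 and 3170 CPM against 1184 to 2081 CPM (1.01 ± 0.27, adjusted p = 0.171). The interactions of these 3 genes missed the threshold. In 27 of the 37 genes, these 3 among them, the *Pax4* R192H mice on the HFD lay above all other mice, against 8.99% of all tested genes.

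Genes for translocation into the ER, glycosylation and vesicle coats had a median of 0.42 over 51 tested genes, 22 of them upwards and 0 downwards at an unadjusted p below 0.05, against 6.84% and 4.38% of all tested genes. None was called by edgeR and 4 by DESeq2 (1.56% of all genes). *Kdelr3*, a receptor that returns ER proteins, had 20.4, 19.1 and 18.3 CPM against 3.09 to 7.40 CPM (1.23 ± 0.25, edgeR adjusted p = 0.0673), and *Ssr4*, a subunit of the translocon-associated complex, 526, 578 and 484 CPM against 139 to 287 CPM (1.11 ± 0.23, adjusted p = 0.0762). The count of 22 was 12 without SCD-fed wildtype mouse 1 and 14 without HFD-fed wildtype mouse 1. With the macrophage marker level as a covariate, 4 of the 37 chaperone genes and 4 of these 51 genes passed, where 2.11% of all tested genes did so, and with the acinar level 19 and 16, where 3.65% did.

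All 79 cytoplasmic ribosomal protein genes had a positive interaction, between 0.30 and 1.35 with a median of 0.57, and 66 of them passed an unadjusted p below 0.05. Of all tested genes 49.2% were above 0 and 6.84% passed upwards. None was called by edgeR and 5 by DESeq2 (1.56% of all genes). *Rplp0* had 839, 906 and 732 CPM in *Pax4* R192H mice on the HFD and 306 to 516 CPM in the other 9 (0.95 ± 0.24, edgeR adjusted p = 0.134). The count of 66 was 34 without HFD-fed *Pax4* R192H mouse 2, 37 without HFD-fed wildtype mouse 1 and 41 without SCD-fed *Pax4* R192H mouse 2. It was 13 with the acinar covariate (3.65% of all tested genes) and 0 with the macrophage covariate (2.11%), under which the median was 0.10.

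Nuclear genes of oxidative phosphorylation had a median of 0.38 over 76 tested genes, with 23 upwards and 0 downwards at an unadjusted p below 0.05 (6.84% and 4.38% of all tested genes), none called by edgeR and 1 by DESeq2, a share near the 1.56% of all genes that DESeq2 called. *Ndufa1*, a subunit of complex I, had 61.2, 67.1 and 52.3 CPM against 19.7 to 36.2 CPM (0.97 ± 0.24, edgeR adjusted p = 0.134), and *Atp5g1*, a subunit of ATP synthase, an interaction of 0.76 ± 0.24. This count depended on the mice. It was 9 without SCD-fed wildtype mouse 1, 11 and 15 without SCD-fed *Pax4* R192H mouse 2 and 3, 8 and 35 without HFD-fed wildtype mouse 1 and 2, and 8 and 12 without HFD-fed *Pax4* R192H mouse 2 and 3. None of the 12 transcripts of the mitochondrial genome passed an unadjusted p below 0.05, and their median of 0.29 ran from -0.03 (without SCD-fed wildtype mouse 2) to 0.62 (without SCD-fed *Pax4* R192H mouse 3).

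**Figure D4:**
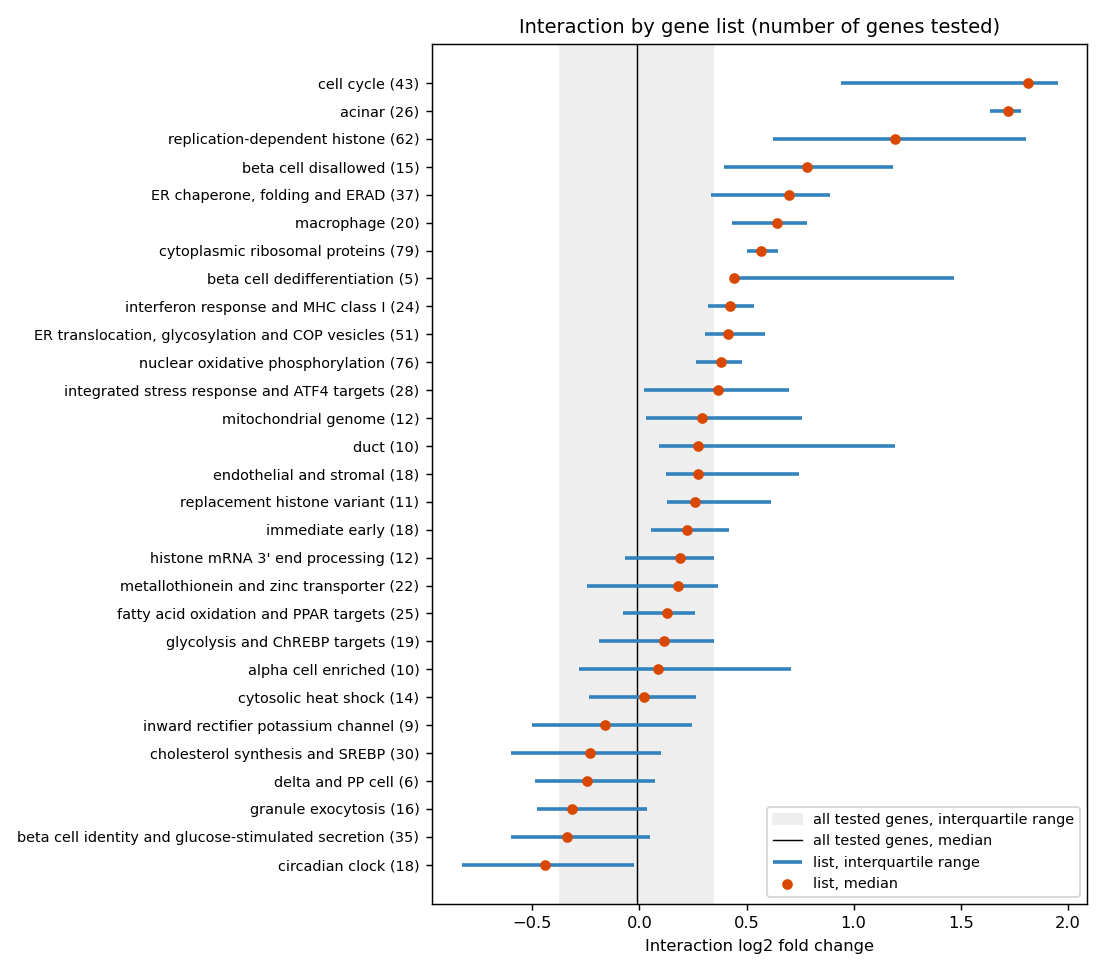
Median (point) and interquartile range (line) of the interaction log2 fold change in each gene list with at least 5 tested genes, with the number tested in brackets and the median and interquartile range of all tested genes as the vertical line and the grey band. The lymphocyte and intestinal lists, in which 2 of 8 and 2 of 6 genes had no count in a whole group, are left out. The replication-dependent histone list, with 1 such gene of 62, is kept.

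Genes of β cell identity and glucose-stimulated secretion had a median interaction of -0.34 over 35 tested genes (-0.21 on the HFD and 0.06 on the SCD), with 8 downwards and 1 upwards at an unadjusted p below 0.05, against 4.38% and 6.84% of all tested genes. None was called by edgeR and 3 by DESeq2 (1.56% of all genes). The median was -0.17 without SCD-fed wildtype mouse 1 and -0.19 without HFD-fed wildtype mouse 1, and 4 and 2 genes passed downwards with the acinar and the macrophage covariate. *Slc2a2*, the glucose transporter GLUT2, had 212, 243 and 319 CPM in *Pax4* R192H mice on the HFD, 701, 489 and 688 CPM in HFD-fed wildtype mice and 493 to 720 CPM in the SCD-fed mice (-1.38 ± 0.27, edgeR adjusted p = 0.0631). *Trpm5*, a cation channel that depolarizes β cells, had 13.7, 17.4 and 25.9 CPM against 38.7 to 70.8 CPM (-1.74 ± 0.34, adjusted p = 0.0610). In both genes the *Pax4* R192H mice on the HFD lay below all others, with HFD-fed wildtype mouse 2 the lowest of its own group.

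Of the β cell transcription factors named here, *Mafa* had the largest SE. *Mafa* had 73.3, 78.1 and 67.2 CPM in *Pax4* R192H mice on the HFD and 123, 185 and 193 CPM in HFD-fed wildtype mice, while SCD-fed *Pax4* R192H mice had 136, 140 and 50.2 CPM and SCD-fed wildtype mice 135, 87.2 and 182 CPM. The groups overlapped on the SCD, and the interaction was -0.89 ± 0.47 (edgeR adjusted p = 0.518). *Nkx6-1* had an interaction of -0.51 ± 0.30 (adjusted p = 0.568), which turned to 0.02 with the macrophage covariate, and the peptide hormone *Ucn3* one of -0.42 ± 0.23 (adjusted p = 0.536). *Pdx1* had one of -0.06 ± 0.27.

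Of 5 tested genes of β cell dedifferentiation, *Serpina7* was the 1 called, against 0.131% of all tested genes. *Aldh1a3*, a retinaldehyde dehydrogenase that marks dedifferentiated β cells, had 68.3, 81.6 and 49.1 CPM in *Pax4* R192H mice on the HFD and 2.47 to 5.50 CPM in the 6 SCD-fed mice. Its HFD-fed wildtype mice had 4.56, 28.7 and 15.5 CPM, a spread within which the interaction of 1.47 ± 0.66 was not called (edgeR adjusted p = 0.420). Of 10 tested α cell enriched genes 3 passed an unadjusted p below 0.05 upwards, against 6.84% of all tested genes, 0 were called by edgeR and 1 by DESeq2 (1.56% of all genes). The list was split, with 5 interactions above and 5 below 0 and a median of 0.08, which ran from -0.11 to 0.39 over the fits that left out a mouse. *Gc*, vitamin D-binding protein, had 384, 518 and 378 CPM in *Pax4* R192H mice on the HFD and 74.5, 245 and 128 CPM in HFD-fed wildtype mice (1.59 ± 0.49, adjusted p = 0.224). *Ttr*, transthyretin, had an interaction of 0.90 ± 0.26 (adjusted p = 0.196).

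The interactions of the islet hormones were 0.14 ± 0.33 for *Ins1*, 0.24 ± 0.33 for *Ins2*, -0.25 ± 0.33 for *Gcg*, -0.35 ± 0.22 for *Sst* and 0.21 ± 0.40 for *Ppy*, none of them called, with edgeR adjusted p-values of 0.597 or more. *Ins1*, *Ins2*, *Gcg* and *Ppy* turned sign in at least 1 alternative fit. The diet effect on *Ins2* was 0.92 in wildtype and 1.17 in *Pax4* R192H mice, and on *Ins1* 0.87 and 1.01.

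The acinar list, which moved with the interaction, had a median of 1.72 over 26 tested genes, with 24 upwards at an unadjusted p below 0.05 (6.84% of all tested genes), none called by edgeR and 4 by DESeq2 (1.56% of all genes). *Cuzd1*, a zymogen granule protein, had 242, 106 and 128 CPM in *Pax4* R192H mice on the HFD and 42.2 to 84.5 CPM in the other 9 (1.78 ± 0.43), and *Amy2b*, an amylase, 45.3, 26.7 and 21.8 CPM against 8.34 to 28.7 CPM (1.88 ± 0.43), with some overlap. The list median was 1.07 without HFD-fed *Pax4* R192H mouse 1, which had the highest acinar level, and 20 genes then passed. Leaving out this mouse gave 9 called genes, all among the 25. Of 10 duct markers 2 passed upwards, and their median of 0.27 was 0.43 without SCD-fed *Pax4* R192H mouse 3, 0.72 without HFD-fed wildtype mouse 1 and 0.47 without HFD-fed *Pax4* R192H mouse 2.

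Immune markers had positive interactions to which the SCD groups contributed most. *Ighm*, the heavy chain of IgM, had 13.8, 11.4 and 61.0 CPM in SCD-fed wildtype mice and 0.941, 0.816 and 0.878 CPM in SCD-fed *Pax4* R192H mice. The HFD-fed mice had 2.00, 0.614 and 1.48 CPM in wildtype and 16.1, 1.26 and 2.07 CPM in *Pax4* R192H mice, so that its interaction of 7.25 ± 1.28 (edgeR adjusted p = 0.0504) joined a genotype effect of -5.03 on the SCD with one of 2.23 on the HFD. *Lyz2*, lysozyme of macrophages, had 61.3, 27.5 and 33.8 CPM in SCD-fed wildtype mice and 7.13 to 14.6 CPM in all others (2.26 ± 0.43, adjusted p = 0.0576). Of 20 macrophage markers 9 passed an unadjusted p below 0.05 upwards, against 6.84% of all tested genes, 0 were called by edgeR and 2 by DESeq2 (1.56% of all genes), with a median of 0.64 from 0.06 on the HFD and -0.58 on the SCD. The count of 9 was 4 without HFD-fed *Pax4* R192H mouse 2. Only 8 of the 15 lymphocyte markers passed the filter, through the mice in which they were high, and *Ms4a1*, a B cell marker, had no count in 2 SCD-fed *Pax4* R192H mice.

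The Pax4-BiKO table gave a readout in other mice, without an SCD group and thus without an interaction. Of the 25 called genes 24 were tested there, and *Serpina7* and *T2* were called between Pax4-BiKO and Control mice, in a comparison that called 18 of 20167 genes (0.0893%), 12 higher (0.0595%) and 6 lower (0.0298%) in Pax4-BiKO mice. *Serpina7* had 334, 299 and 239 CPM in Pax4-BiKO mice and 57.6 and 66.3 CPM in Control mice (2.23, edgeR adjusted p = 0.00417), and *T2* 5.34, 6.29 and 6.19 CPM against 14.9 and 12.8 CPM (-1.22, adjusted p = 0.0499). Both had the sign of the interaction. Leaving out 1 mouse gave 0 or 1 called gene of the 24. These were 0 without Control mouse 1, Control mouse 2 or Pax4-BiKO mouse 2, and *Serpina7* alone without Pax4-BiKO mouse 1 or 3.

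*Dapl1* had 213, 163 and 169 CPM in Pax4-BiKO and 61.8 and 88.8 CPM in Control mice (1.27, edgeR adjusted p = 0.0821), *Gad1* 38.9, 51.8 and 58.7 CPM against 92.4 and 87.9 CPM (-0.86, adjusted p = 0.145), and *Kcnj12* 2.05, 1.87 and 2.15 CPM against 4.24 and 5.37 CPM (-1.25, adjusted p = 0.140). Of the 17 genes with a positive interaction 15 were above 0 in the Pax4-BiKO comparison, and of the 7 tested genes with a negative one 7 were below 0. Of all genes tested there, 51.5% were above and 48.5% below 0. The 8 called histones had log2 fold changes from -0.08 to 0.50 there, with adjusted p-values of 0.594 or more. Over 60 tested histone genes the median was 0.19 and 2 passed an unadjusted p below 0.05 upwards, against 6.23% of all genes. The 26 acinar markers had a median of -0.68 in this table, with 0 past an unadjusted p below 0.05 in either direction, against 6.23% upwards and 6.62% downwards over all genes.

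**Figure D5:**
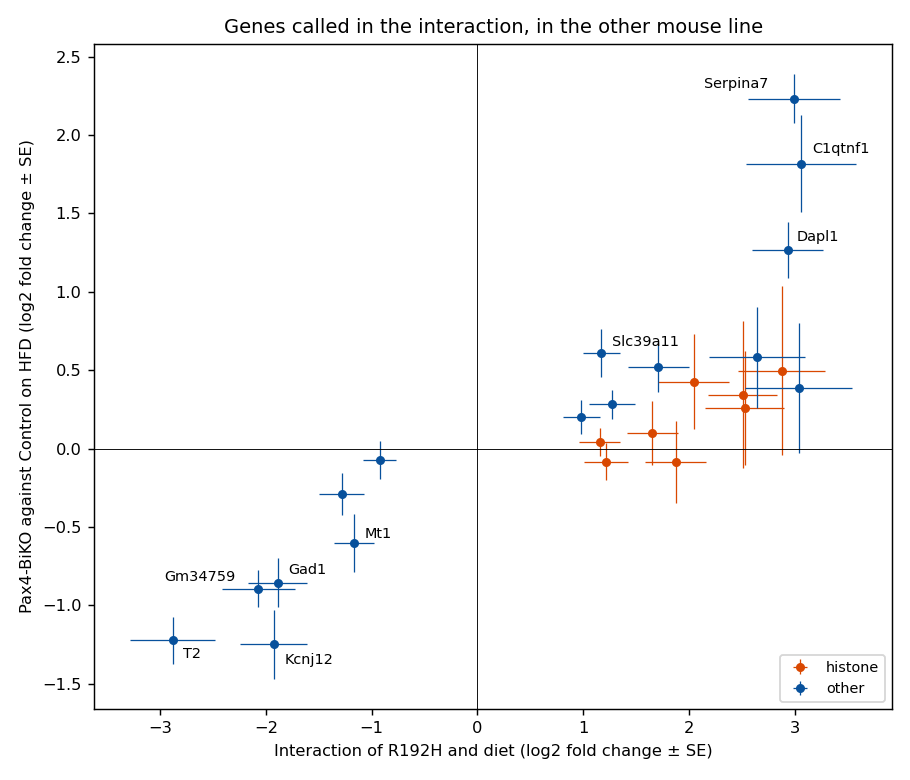
Interaction log2 fold change (horizontal) and Pax4-BiKO against Control log2 fold change on the HFD (vertical), each with its SE, for the 24 called genes tested in both tables. Histones lie to the right of 0 and near 0 on the vertical axis, from -0.08 to 0.50, while *Serpina7* and *T2* are the 2 genes called on it.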

How the data were processed

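Total RNA from islets was sequenced by the authors with stranded libraries. STAR v2.7.1 (alignment to mm10), RSEM v1.3.3 (abundance) and tximport (summary to genes) were their tools. These names and versions are from the submitters' processing notes. The annotation release and the strand setting of the counting are not given in the sources used here. Each table as deposited by the authors holds RSEM expected counts, not scaled for depth, which were rounded to whole numbers. No per-sample column was left unused (0). Symbols came from GENCODE M21, which matched 65.8% of identifiers and 90.7% of those tested.

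The test was edgeR v4.0.16 under R v4.3.3, with TMM normalization, filterByExpr with a minimum count of 10, 1 coefficient per group over the 12 mice, and a quasi-likelihood F-test of the contrast. The SE is the absolute log2 fold change divided by the square root of F. Mean log2 CPM of a list used a prior count of 2. A gene was called where its adjusted p-value was under 0.05 and its log2 fold change beyond 0.5 in either direction. The script was tested on simulated data.

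The gene lists, markers and tests were chosen with earlier results of these data known, and the histone, zinc, GABA and Kir lists after the calls were seen. Named were all called genes, the 2 members of each list with the lowest p and genes the study singles out; *Ccnd2*, *Pdx1*, *Slbp*, *Npat* and *Hist1h2br* were named after their values were seen. No p-value was computed for a list. Alternatives were RLE factors, dropping the filter, requiring 10 counts in all samples, a replicate block, marker covariates (the macrophage and lymphocyte ones, like the octamer and CCAAT motifs, were added after seeing the data), DESeq2 v1.42.0, limma voom v3.58.1, leaving out the 2 most abundant genes, other thresholds and leaving out each mouse. The SE includes the spread between mice, and the limit given for a count of 0 covers counting error only. No 2 mice of a group agreed within sampling noise (chi-square per degree of freedom at least 11.4). Some results for single genes are not reported here.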

Additional observations from a re-analysis of the deposited data

Results flagged for a closer look

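In each of 25 genes the genotype effect differed between the diets by the test of the difference itself (edgeR quasi-likelihood test, adjusted p below 0.05). The log2 interaction was 2.94 for *Dapl1*, 3.00 for *Serpina7*, 3.06 for *C1qtnf1*, 3.04 for *Cdca3*, 2.64 for ENSMUSG00000120992.2, 1.71 for *Aaas*, 1.27 for *Csrp1*, 1.17 for *Slc39a11* and 0.98 for *Ly6e*. It was 2.51 for *Hist1h2bm*, 2.88 for *Hist1h3c*, 2.53 for *Hist1h3h*, 2.04 for *Hist1h2bk*, 1.88 for *Hist1h4a*, 1.65 for *Hist1h2ap*, 1.21 for *Hist1h2bg* and 1.16 for *Hist1h3f*. It was -2.88 for *T2*, -1.89 for *Gad1*, -1.93 for *Kcnj12*, -1.17 for *Mt1*, -2.07 for *Gm34759*, -1.29 for *Ulk4* and -0.92 for *Zfp568*. The value of -13.0 for *Gm43126*, which had no count in SCD-fed wildtype mice, depends on the prior count.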

How the results depend on the processing

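The direction of the interactions was kept in each of 22 alternative fits for 24 of the 25 genes and in the 21 that tested it for *Gm43126*, while the number called was not. It was 708 (464 positive, 244 negative) without a filter on low counts, 80 (62 and 18) where every sample had to reach 10 counts, 311 (212 and 99) with DESeq2, 52 (42 and 10) without the 2 most abundant genes, and 118 (88 and 30) at an adjusted p below 0.1. It was 25 with RLE factors and without the fold threshold, and 22 with limma voom. It was 0 with the acinar and 0 with the macrophage marker covariate (1182 and 717 genes at an unadjusted p below 0.05) and 1, *Hist1h4a*, with the lymphocyte covariate. Leaving out each mouse gave 0 to 101 calls, 0 to 67 positive and 0 to 34 negative. Apart from fewer samples and more terms, the cause was not tested.

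With the replicate number as a block, 0 genes were called, 0 in either direction (lowest adjusted p 0.0562, 1787 genes at an unadjusted p below 0.05). The numbers did not pair the mice: 5 of 18 same-number pairs had a correlation of deviations over 0.1, and 3 of 12 mice correlated best with their own number. Of the 24 genes read in the Pax4-BiKO table, 2 were called with RLE factors, 10 without a filter, 9 with DESeq2, 6 with the block and 0 to 1 without a mouse, where 19, 697, 250, 88 and 2 to 28 of all genes were called.

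Signs turned for genes that were not called. With the macrophage covariate, *Ins1* was -0.008302, *Ins2* -0.21, *Nkx6-1* 0.021 and *Hsp90aa1* -0.30. Without the 2 most abundant genes, *Dcn* was -0.11 and *Vil1* 0.053. Over the fits that left out a mouse, *Dcn* ran from -0.11 (without SCD-fed wildtype 2) to 1.75, *Fabp1* from -6.25 to 7.18 (SCD-fed *Pax4* R192H 1), *Gcg* from -0.38 to 0.045 (HFD-fed wildtype 1), *Ins1* from -0.066 (SCD-fed *Pax4* R192H 3) to 0.31, *Ppy* from -0.19 (HFD-fed *Pax4* R192H 3) to 0.42 and *Vil1* from -0.21 to 0.16, above 0 at 0.062, 0.16 and 0.017 (SCD-fed wildtype 2, SCD-fed *Pax4* R192H 1 and HFD-fed wildtype 3).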

Other observations

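Genes of the circadian clock had a median interaction of -0.44 over 18 tested genes, with 6 downwards at an unadjusted p below 0.05, against 4.38% of all tested genes, and 0 called by edgeR or DESeq2. *Tef*, a transcription factor of the clock output, had 13.6, 12.4 and 15.5 CPM in *Pax4* R192H mice on the HFD and 17.6 to 38.7 CPM in the other 9 (-1.13 ± 0.34, edgeR adjusted p = 0.219). The count of 6 was 3 without SCD-fed wildtype mouse 1, 3 without SCD-fed *Pax4* R192H mouse 2 and 1 without HFD-fed wildtype mouse 1. The median was -0.28 without SCD-fed wildtype mouse 1 and -0.23 without HFD-fed wildtype mouse 1 or HFD-fed *Pax4* R192H mouse 2. In cholesterol synthesis 7 of 30 tested genes passed downwards and 2 upwards (median -0.23, 0 called by edgeR and 1 by DESeq2, against 1.56% of all genes), and the 7 were 4 without SCD-fed *Pax4* R192H mouse 1, HFD-fed wildtype mouse 1 or HFD-fed *Pax4* R192H mouse 3. This median was -0.39 without SCD-fed wildtype mouse 1 and -0.14 without SCD-fed *Pax4* R192H mouse 1.

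Genes disallowed in β cells had a median of 0.78 over 15 tested genes, from 0.38 on the HFD and -0.65 on the SCD, with 3 upwards (6.84% of all tested genes) and 0 called by edgeR or DESeq2. *Slc16a1*, a lactate and pyruvate transporter, had 3.37, 2.12 and 1.57 CPM in SCD-fed wildtype mice and 0.136 to 0.417 CPM in HFD-fed wildtype mice (interaction 2.10 ± 0.64, edgeR adjusted p = 0.223). Its median was 0.19 without SCD-fed wildtype mouse 2, 0.52 without SCD-fed *Pax4* R192H mouse 2 and 1.22 without SCD-fed *Pax4* R192H mouse 3, and its count of 3 was 5 without SCD-fed wildtype mouse 1 and 6 without SCD-fed *Pax4* R192H mouse 3.

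The other lists stood against 6.84% upwards and 4.38% downwards of all tested genes at an unadjusted p below 0.05. Their counts or medians moved when single mice were left out. In fatty acid oxidation 1 of 25 passed upwards, below the share of all genes. This was *Cd36*, a fatty acid transporter (1.71 ± 0.37, edgeR adjusted p = 0.0818). Of 28 targets of the integrated stress response 5 passed upwards and 2 downwards, above the shares of all genes. The 5 were 3 without SCD-fed wildtype mouse 1, HFD-fed wildtype mouse 3 or HFD-fed *Pax4* R192H mouse 1. Of 16 granule exocytosis genes 2 passed downwards, above the share of all genes, and 0 upwards. Over the fits that left out a mouse, the median interaction ran from 0.20 (without SCD-fed wildtype mouse 3) to 0.71 (without HFD-fed wildtype mouse 2) for interferon response and MHC class I genes, and from -0.41 to -0.09 (without HFD-fed wildtype mouse 1) for granule exocytosis. It ran from 0.04 to 0.20 for glycolysis (without SCD-fed *Pax4* R192H mouse 3 and mouse 1) and from -0.42 to -0.10 for δ and PP cell genes (without SCD-fed wildtype mouse 3 and mouse 1). It turned sign for endothelial and stromal markers, from -0.19 (without SCD-fed wildtype mouse 2) to 0.56 (without SCD-fed *Pax4* R192H mouse 3), and reached 0.66 for immediate early genes without HFD-fed wildtype mouse 1 and -0.01 without HFD-fed wildtype mouse 3. For cytosolic heat shock genes it ran from -0.06 to 0.11.

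Of 22 metallothionein and zinc transporter genes 3 passed upwards and 3 downwards at an unadjusted p below 0.05 (median 0.18), against 6.84% and 4.38% of all tested genes, *Slc39a11* and *Mt1* being the called ones, where 0.131% of all tested genes were called. This list and those of inward rectifier channels and GABA were drawn up after the calls were seen. Of 9 inward rectifier channel genes *Kcnj12* was the called one, and *Kcnj11*, the pore of the β cell KATP channel, had an interaction of -0.50 ± 0.21 (edgeR adjusted p = 0.387). Of 3 tested genes of GABA metabolism *Gad1* was called, and *Aldh5a1*, which acts in GABA breakdown, had -0.44 ± 0.18.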
